A study of Mus musculus with 6 samples.

Results

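Slc7a8 and Slc16a10 encode 2 amino acid transporters of mouse granulosa cells, and each gave a circular RNA (circRNA) that joins its exons 2 and 3. In a circRNA the last exon is spliced back onto the start of the first, and it is counted by the reads that cross that joint, the back-splice reads. All circRNA of the 2 genes in the deposited counts were taken, 10 of 42381, of which 8 came from Slc7a8 and 2 from Slc16a10. Both genes were picked because of how their circular and linear RNA stood in the comparisons given here, so their values in those comparisons are a description and carry no test.

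RNA came from mural granulosa cells, which line the follicle wall, of wild-type CF-1 mice, 1 library per mouse. All mice were 21 days old and received 5 IU of equine chorionic gonadotropin (eCG, named PMSG in the labels), which makes follicles grow. At 4-h post-hCG there were 3 mice that were also given human chorionic gonadotropin (hCG), a stand-in for the surge of luteinizing hormone that starts ovulation, 46 h after eCG, and were sampled 4 h later. At 0-h there were 3 mice sampled 46 h after eCG alone.

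The protein of Slc7a8, also called LAT2, is a light chain that works only when joined to the heavy chain encoded by Slc3a2. The pair exchanges neutral amino acids across the cell membrane without sodium. The protein of Slc16a10 is a monocarboxylate transporter relative that lets aromatic amino acids and thyroid hormones pass down their gradient, and in the mouse kidney and gut it serves as an exit path beside exchangers such as LAT2. Granulosa cells take up amino acids and hand some of them on to the oocyte through gap junctions. By the methods of the study, oocytes and cumulus oocyte complexes were removed before the mural cells were collected, and this transfer was not measured here.

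The joints that carry these circRNA are shown because they are the only sequence that tells the circle from the linear RNA. They were read from GRCm38 on the minus strand, with the last 50 bases of the exon before the joint in lower case and the first 50 bases of the exon after it in capitals. The linear joint of exons 2 and 3 is set under each back splice, and the third circRNA, with exons 4 to 7 of Slc7a8, is the only other one with at least 20 reads.
Slc7a8 back splice, exon 3 to exon 2 (chr14:54758439-54759745): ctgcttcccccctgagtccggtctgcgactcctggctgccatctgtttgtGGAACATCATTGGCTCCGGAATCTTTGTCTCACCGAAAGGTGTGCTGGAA
Slc7a8 linear splice, exon 2 to exon 3: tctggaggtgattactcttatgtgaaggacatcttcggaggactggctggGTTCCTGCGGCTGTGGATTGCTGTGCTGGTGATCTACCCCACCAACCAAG
Slc16a10 back splice, exon 3 to exon 2 (chr10:40076564-40080807): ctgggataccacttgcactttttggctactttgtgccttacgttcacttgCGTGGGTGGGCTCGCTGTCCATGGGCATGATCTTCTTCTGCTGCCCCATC
Slc16a10 linear splice, exon 2 to exon 3: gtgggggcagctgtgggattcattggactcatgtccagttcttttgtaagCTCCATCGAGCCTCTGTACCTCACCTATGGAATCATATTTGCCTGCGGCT
Slc7a8 back splice, exon 7 to exon 4 (chr14:54733180-54737665): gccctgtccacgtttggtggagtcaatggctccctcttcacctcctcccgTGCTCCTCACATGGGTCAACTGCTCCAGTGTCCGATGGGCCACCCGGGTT
A linear RNA that holds exons 2 and 3 carries the linear joint, and so does the circle, so reads on that joint come from both.

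Both circles start at the first exon after a long intron and lie wholly in coding sequence. In Slc7a8, exon 2 of 11 (205 bases) and exon 3 (152 bases) make a circle of 357 bases, flanked by introns of 21434 bases before exon 2 and 20773 bases after exon 3. In Slc16a10, exon 2 of 6 (145 bases) and exon 3 (454 bases) make a circle of 599 bases, flanked by introns of 60895 and 19933 bases. Both genes had flanking introns longer than the medians over the abundant circRNA (those with at least 100 CPM over circRNA reads in at least 3 libraries), which were 11685 bases before and 10331 bases after the circle. The intron before the Slc16a10 circle was longer than that of 94.7% of the abundant circRNA, against 69.7% for the Slc7a8 circle. Of 1657 abundant circRNA that could be placed on annotated exons, 121 (7.30%) joined exons 2 and 3, so the arrangement is not particular to these genes.

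The circles differ in what the host reading frame does when it runs round them. The 357 bases of the Slc7a8 circle are a multiple of 3, as are 36.8% of the placed abundant circRNA, and the host frame meets no stop codon on its way round but also holds no ATG. The 599 bases of the Slc16a10 circle are not a multiple of 3. There the host frame holds 5 ATG codons and meets a stop 27 bases past the back splice. The 2 exons hold 22.4% of the coding sequence of Slc7a8 and 39.0% of that of Slc16a10, and translation was not measured here.

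**Figure D1:**
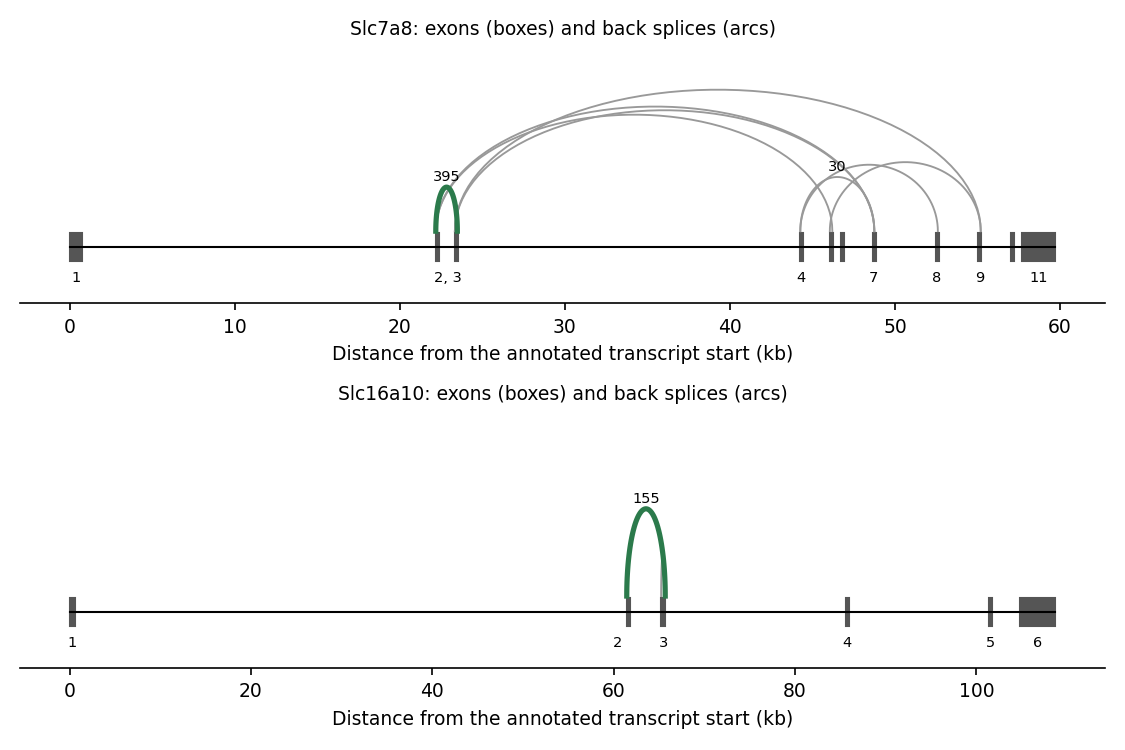
Exons (grey boxes, drawn no narrower than a minimum width so that they can be seen) and back splices (arcs) of Slc7a8 above and Slc16a10 below, by distance from the annotated transcript start in kb. Green arcs are the exon 2 to 3 circRNA, with 395 reads in Slc7a8 and 155 in Slc16a10 over the 6 libraries, and grey arcs are the other 8 circRNA, of which the exon 4 to 7 circRNA of Slc7a8 had 30 reads.

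In both genes nearly all circular reads were at 1 back splice. The Slc7a8 exon 2 to 3 circRNA had 395 of the 441 circRNA reads of the gene over the 6 libraries (89.6%), and the Slc16a10 exon 2 to 3 circRNA had 155 of 159 (97.5%). These 2 passed the filter for abundant circRNA, in each case at 100 CPM or more in all 6 libraries, and the other 8 did not. By level they ranked 129 (Slc7a8) and 461 (Slc16a10) of 1658 abundant circRNA.

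The Slc7a8 exon 2 to 3 circRNA stood at 540, 611 and 742 normalized CPM (back-splice reads scaled to the library's total at junctions with a gene name and by TMM factors) in the 3 mice at 4-h post-hCG, against 406, 248 and 247 in the 3 mice at 0-h. Every mouse at 4-h post-hCG lay above every mouse at 0-h, and the highest 0-h mouse stood well apart from the other two. The means were 631 ± 103 at 4-h post-hCG and 300.4 ± 91.7 at 0-h (SD, n = 3 mice each), a log2 fold change of 1.06 (SE 0.276), or 2.08-fold. In reads, these were 85, 84 and 88 at 4-h post-hCG and 66, 42 and 30 at 0-h, where 1 read was worth 6.13 to 8.40 CPM before TMM factors. It was among the called circRNA, those at an adjusted p of at most 0.1 by edgeR and at least 1.5-fold either way, which were 1.21% of the 1658 tested, and nothing is read from this since the gene was picked on it. The call did not hold without 4-h post-hCG replicate 3 (log2 fold change 0.90), without 0-h replicate 2 (0.93) or without 0-h replicate 3 (0.93), nor when every circRNA with a read was tested (1.00).

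The Slc16a10 exon 2 to 3 circRNA stood at 298, 218 and 152 normalized CPM in the 3 mice at 4-h post-hCG, against 166, 118 and 107 at 0-h. The groups overlapped, since the lowest mouse at 4-h post-hCG lay under the highest at 0-h. The means were 223 ± 73.4 and 130.4 ± 31.5 (SD, n = 3 mice each), and the log2 fold change was 0.77 (SE 0.388), which was not called. It rested on 47, 30 and 18 reads at 4-h post-hCG and 27, 20 and 13 at 0-h.

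The other 8 circRNA were read 1 to 30 times in all. That of exons 4 to 7 of Slc7a8 had 12, 6 and 3 reads at 4-h post-hCG and 7, 0 and 2 at 0-h, or 48.4 ± 25.8 and 19.8 ± 21.7 normalized CPM (SD, n = 3 mice each), and its groups overlapped. The remaining 6 of Slc7a8 had 1 to 4 reads each. They joined exons 2 to 5, 2 to 7, 3 to 7, 3 to 9, 4 to 8 and 5 to 9, and 5 of them were read in a single library. That of Slc16a10 exon 3 alone had 4 reads in 1 mouse at 0-h and none at 4-h post-hCG. There a count of 0 allows up to 19.2 to 25.2 CPM in a library, before TMM factors. No change can be read from counts of this size. Summed over each gene, the circular level of Slc7a8 was 698 ± 96.2 normalized CPM at 4-h post-hCG and 334 ± 112 at 0-h (SD, n = 3 mice each), a log2 fold change of 1.05 (SE 0.253, called, as were 1.27% of 1580 gene sums). That of Slc16a10 was 218 ± 69.0 at 4-h post-hCG and 141 ± 45.7 at 0-h (SD, n = 3 mice each), a log2 fold change of 0.63 (SE 0.367, not called). The call for the Slc7a8 sum did not hold without 4-h post-hCG replicate 3 (0.94), 0-h replicate 2 (0.88) or 0-h replicate 3 (0.97).

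The linear RNA of Slc7a8 differed far more between the time points. At the exon 2 to 3 junction it stood at 663, 478 and 605 linear normalized CPM at 4-h post-hCG, against 58.8, 48.1 and 60.8 at 0-h. The lowest mouse at 4-h post-hCG was several times the highest at 0-h. The means were 582 ± 95 and 55.9 ± 6.84 (SD, n = 3 mice each), 10.4-fold or a log2 fold change of 3.38 (SE 0.198), which ranked 11 of 1658 by size, with 20.6% of the linear counts at abundant circRNA called. Over genes, 1 junction, that of the highest linear count, stood for each, and CPM were scaled to the total over these junctions, so that they are higher for the same count than those at single junctions and not to be set beside them. On this gene scale Slc7a8 had 4745, 3796 and 5390 linear normalized CPM at 4-h post-hCG, against 487, 438 and 485 at 0-h. The log2 fold change was 3.30 (SE 0.168), called, with 25.8% of 6956 gene names called. By this level Slc7a8 lay above 99.7% of the gene names. The circular and the linear CPM are on separate scales, and a level at a junction has no length term.

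The linear RNA of Slc16a10 was low and rose by less. At the exon 2 to 3 junction it stood at 3.41, 4.84 and 5.29 linear normalized CPM at 4-h post-hCG, against 3.38, 1.53 and 1.26 at 0-h, from 24, 30 and 26 counts and 21, 11 and 7 counts. The groups touched without overlapping, and the log2 fold change was 1.1 (SE 0.362). On the gene scale, where the exon 3 circRNA (113, 112 and 90 linear counts at 4-h post-hCG, 76, 66 and 43 at 0-h) stood for Slc16a10, the values were 87.1, 90.7 and 102.9 linear normalized CPM at 4-h post-hCG, against 64.4, 48.6 and 39.1 at 0-h. These groups did not overlap, and the log2 fold change was 0.88 (SE 0.212). Both differences were called. By level the gene lay above 48.5% of the gene names, near the middle. The start of exon 3 lies inside the exon 2 to 3 circle, so the gene-scale counts may hold reads of the circle. Whether they do was not tested.

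**Figure D2:**
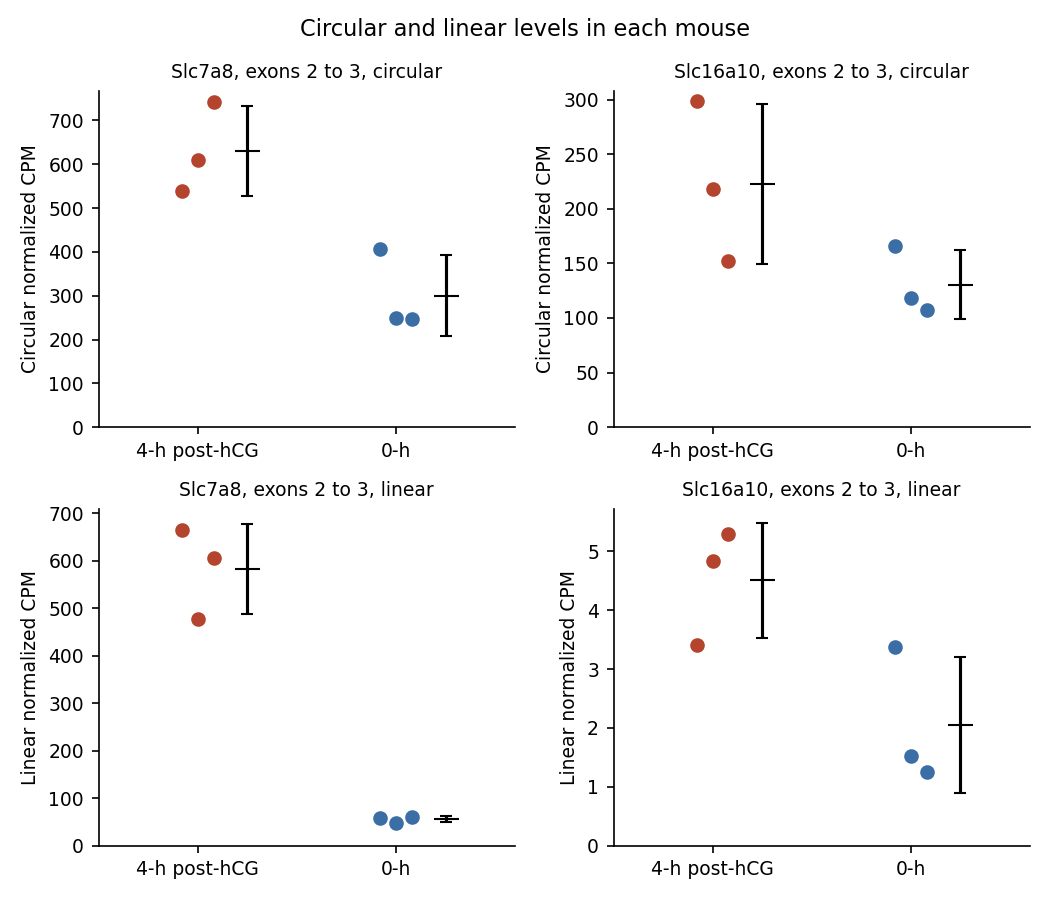
Circular (top) and linear (bottom) normalized CPM at the exon 2 to 3 junctions of Slc7a8 (left) and Slc16a10 (right), with 1 point per mouse and the mean ± SD of 3 mice beside them. Linear values come from the linear counts given with these circRNA, and are not reads on the linear joint of exons 2 and 3. The linear RNA of Slc7a8 averaged 582 at 4-h post-hCG and 55.9 at 0-h, while its circRNA averaged 631 and 300.4, and the points of the Slc16a10 circRNA overlap between the time points.

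Set against each other, the circular reads of Slc7a8 were fewer per linear count at 4-h post-hCG than at 0-h. Per 100 linear counts at the junction there were 1.82, 2.83 and 2.96 circular reads at 4-h post-hCG, against 18.1, 12.1 and 8.88 at 0-h. The linear count behaved as a sum over the ends of the junction, while a circular read is counted at a single joint. These values therefore compare the time points and do not give the relative amounts of the 2 forms. The groups did not overlap, and the means were 2.54 ± 0.622 and 13 ± 4.67 (SD, n = 3 mice each). In the fit that scaled circular and linear columns together, the circular to linear ratio changed by a log2 fold change of -2.35 (SE 0.310), or 5.10-fold lower at 4-h post-hCG. It ranked 10 by size of 1658, of which 2.53% were called, and it was called in every alternative run. On the same scale, which sets the circular and linear levels of the typical abundant circRNA about equal, the circRNA lay under the linear RNA by a log2 ratio of -2.50 (SE 0.210, called) at 4-h post-hCG. That value was -1.79 at a filter of 50 CPM, -3.24 at 200 CPM and -5.34 with reads taken as counted, called in each. At 0-h the log2 ratio was -0.14 (SE 0.227, not called). Of the abundant circRNA 68.2% were called at 4-h post-hCG and 67.3% at 0-h. The 0-h value turned with the filter, to 0.58 at 50 CPM and -0.90 at 200 CPM, and to 0.021 without 0-h replicate 3, and with reads taken as counted it was -2.93, so no order of the 2 forms at 0-h is given.

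In Slc16a10 the ratio of circle to linear RNA was not called between the time points. Per 100 linear counts there were 196, 100 and 69.2 circular reads at 4-h post-hCG, against 129, 182 and 186 at 0-h. The groups overlapped, with means of 122 ± 66.0 and 165 ± 31.9 (SD, n = 3 mice each). The log2 change of the ratio was -0.34 (SE 0.540), which was not called. On the joint scale the circRNA lay above the linear RNA by a log2 ratio of 3.05 (SE 0.367) at 4-h post-hCG and 3.39 (SE 0.425) at 0-h, both called, and at 0-h it ranked 3 of 1658 from the top. With reads taken as counted the log2 ratios were 0.20 and 0.61 and neither was called. Since the linear count behaved as a sum over the ends of the junction, these as-counted ratios do not show that the forms were equal.

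**Figure D3:**
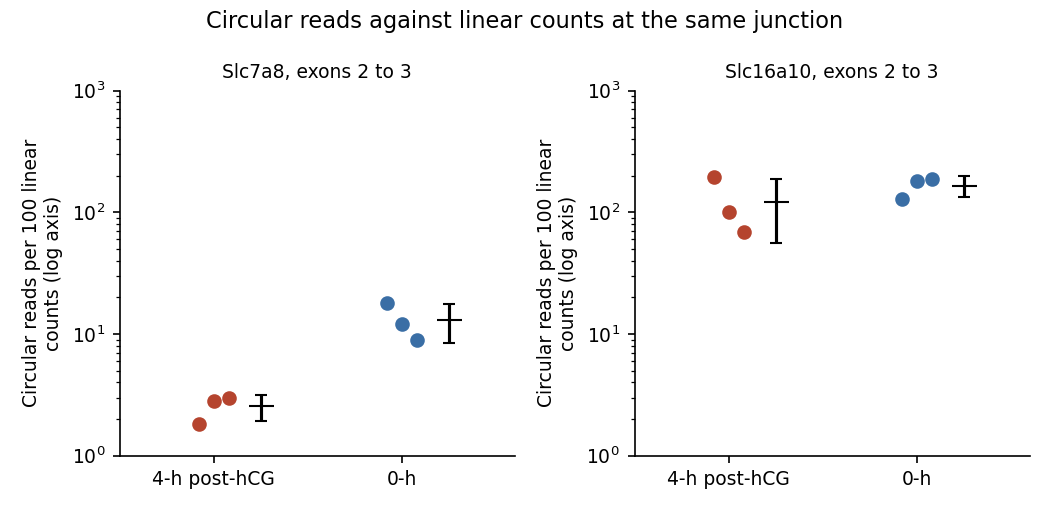
Circular reads per 100 linear counts at the exon 2 to 3 junction in each mouse, on a log axis, with the mean ± SD of 3 mice. Linear counts are those given with the circRNA, and are not reads on the linear joint of exons 2 and 3. Slc7a8 averaged 2.54 at 4-h post-hCG and 13 at 0-h with no overlap, and Slc16a10 averaged 122 and 165 with overlap.

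The linear count depends on where in the gene a junction ends. Over the deposited circRNA, linear counts behaved as a sum over the 2 ends of a junction, since in all 6727 sets of 4 circRNA that share 2 starts and 2 ends they added up within 2 counts. Circles that share 1 end therefore give the difference between their other ends, a comparison chosen after these values were seen. In both genes the start of exon 3 lies inside the exon 2 to 3 circle, so circle reads may add to its count. Their part was not tested. In Slc7a8, the count at the start of exon 3 less that at the start of exon 2, read from the circRNA of exons 3 to 7 and 2 to 7, was -367, -129 and -98 at 4-h post-hCG, against 332, 339 and 390 at 0-h. Exon 3 thus had the higher count in every 0-h mouse and the lower one in every mouse at 4-h post-hCG. For 1036 abundant circRNA there was a pair that sets a start inside the circle against the circle's own start. Of these, 5 had this sign pattern, that of Slc7a8 among them, and 1 had the opposite. The 2 circRNA that end at the start of exon 3 had the lowest linear folds of the gene, 4.90 and 5.04 as summed counts at 4-h post-hCG over 0-h, against 7.89 to 10.1 for the other 6.

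In Slc16a10 the same difference kept its sign. The count at the start of exon 3 less that at the start of exon 2 was 89, 82 and 64 at 4-h post-hCG, against 55, 55 and 36 at 0-h. Exon 3 was higher in every mouse. Of the 1036 circRNA, the start inside the circle was higher in every mouse in 59.1% at 4-h post-hCG and 59.8% at 0-h. The linear level of Slc16a10 thus depends on the junction used, with 4.51 ± 0.977 linear normalized CPM at 4-h post-hCG and 2.06 ± 1.16 at 0-h for exons 2 to 3, and 17.5 ± 1.22 and 9.71 ± 2.30 for exon 3 on the same scale (SD, n = 3 mice each).

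Other amino acid transporters were read from their linear RNA on the gene scale, in the fit over all gene names (edgeR, Benjamini-Hochberg adjusted). The deposited circRNA hold 22 of a list of 48 other transporters, 20 of which passed the filter on low counts, and a gene without a circRNA is not in the table. Of the 20, 5 rose and 1 fell, where 13% of all gene names rose and 12.8% fell, and the median log2 fold change was -0.04 for the list and -0.01 over all gene names. Slc3a2, the heavy chain that LAT2 needs, rose to 1889, 1679 and 1537 linear normalized CPM at 4-h post-hCG, against 650, 527 and 605 at 0-h (log2 fold change 1.52, SE 0.149, adjusted p = 4.23e-08). Every mouse at 4-h post-hCG was above every mouse at 0-h.

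Among the other light chains of that heavy chain, Slc7a11 rose, and Slc7a5, Slc7a6 and Slc7a7 were not called. Slc7a6 (log2 fold change -0.41, adjusted p = 0.0536) and Slc7a7 (-0.54, adjusted p = 0.396) are named here outside the rule. Slc7a11, which exchanges cystine for glutamate, had 372, 219 and 359 linear normalized CPM at 4-h post-hCG, against 9.32, 3.68 and 3.64 at 0-h (log2 fold change 5.82, SE 0.303, adjusted p = 9.81e-13). Slc7a5 encodes LAT1, the close relative of LAT2, and had 469, 453 and 608 at 4-h post-hCG, against 550, 633 and 616 at 0-h (log2 fold change -0.24, SE 0.149, adjusted p = 0.254). Its groups overlapped. Slc7a1, a carrier of arginine and lysine, rose by a log2 fold change of 1.97 (adjusted p = 2.05e-08), and Slc6a6, the taurine transporter, rose by 1.35 (adjusted p = 6.03e-07).

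Slc38a1, a sodium-coupled carrier of glutamine, rose by 0.94 (adjusted p = 4.71e-05) and is named as the last of the 5, outside the rule. The gene that fell was Slc38a6, with 4.63, 25.1 and 10.3 linear normalized CPM at 4-h post-hCG, against 17.8, 30.2 and 32.8 at 0-h (log2 fold change -0.99, adjusted p = 0.0971). Its groups overlapped. Slc38a10, the most highly read transporter that was not called, had a log2 fold change of -0.23 (adjusted p = 0.232).

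**Figure D4:**
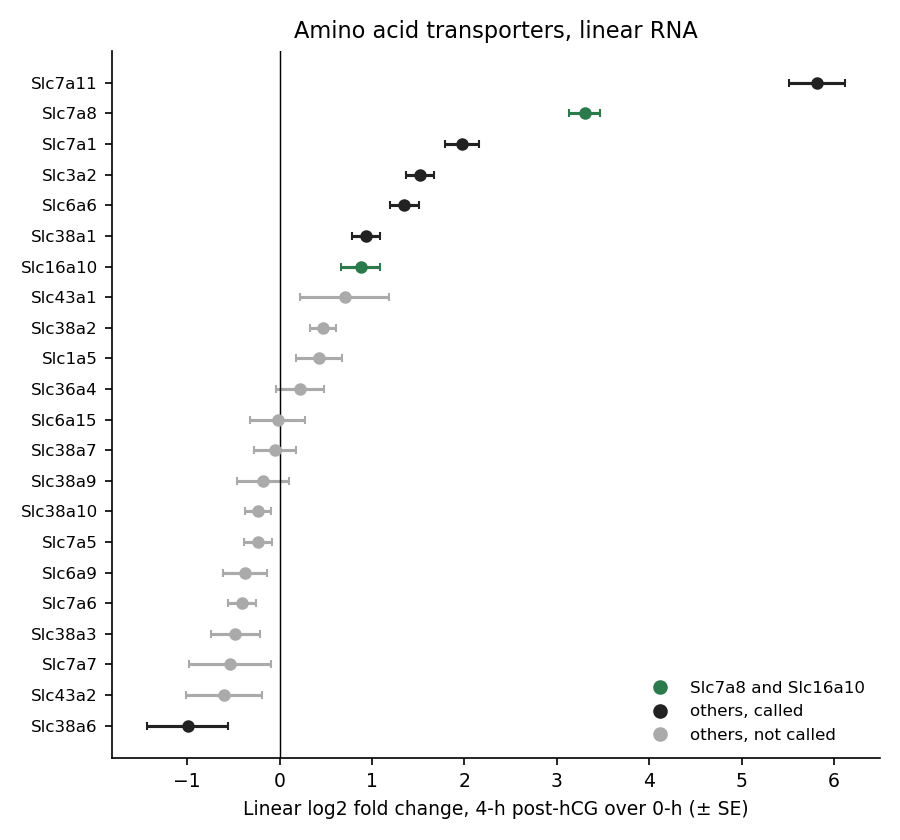
Linear log2 fold change of 4-h post-hCG over 0-h, ± SE, for the 20 other amino acid transporters tested (black where called, grey where not) and for Slc7a8 and Slc16a10 (green, shown as a description). Slc7a11 stands at 5.82 and Slc7a8 at 3.30, and most of the others lie near 0.

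Besides those of Slc7a8 and Slc16a10, 3 abundant circRNA came from these transporters, 1 each from Slc7a11, Slc38a1 and Slc38a10, and none was called between the time points. The circRNA of Slc7a11 stood at 69.8, 87.2 and 92.7 normalized CPM at 4-h post-hCG, against 12.3, 17.7 and 49.3 at 0-h (log2 fold change 1.69, SE 0.782, adjusted p = 0.693). The groups did not overlap, at few reads. Its circular to linear ratio fell by 4.02 on the log2 scale (adjusted p = 0.0049).

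Among the relatives of Slc16a10 and the genes of thyroid hormone action, 1 gene was called. Of 13 other genes of the Slc16 family, 2 were tested and neither was called. Slc16a1, a lactate carrier, had a log2 fold change of -0.40 (adjusted p = 0.0476, under the fold threshold) and Slc16a6 one of -0.88 (adjusted p = 0.176). Of 10 tested genes of thyroid hormone transport and action, 0 rose and 1 fell, where 13% of all gene names rose and 12.8% fell. It was Thra, a thyroid hormone receptor, at 168, 242 and 146 linear normalized CPM at 4-h post-hCG, against 384, 341 and 353 at 0-h (log2 fold change -0.95, SE 0.171, adjusted p = 0.00021). Ncor1, a corepressor of that receptor, was not called (0.07, adjusted p = 0.757).

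Of 12 tested genes of amino acid sensing and response, 1 rose and 2 fell, a share close to the 25.8% called over all gene names. Rragd, a GTPase that brings the kinase complex of mTOR to the lysosome when amino acids are present, had 77.9, 59.1 and 74.3 linear normalized CPM at 4-h post-hCG, against 7.62, 2.21 and 3.64 at 0-h (log2 fold change 3.96, SE 0.360, adjusted p = 1.28e-08). Sesn1, a brake on that complex, fell by 0.99 (adjusted p = 0.0124). Depdc5, a subunit of another brake, fell by 0.70 on the log2 scale (adjusted p = 0.0044), and its entry also names a U6 gene, so the 2 cannot be told apart. Rps6kb1, a kinase downstream of mTOR (0.23, adjusted p = 0.289), and Rptor, a subunit of the complex (-0.44, adjusted p = 0.0400, under the fold threshold), were not called.

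The genes most like each in pattern were found by Pearson correlation of log2 normalized CPM over the 6 libraries, which mostly shows the step between the 2 time points and is given as a description. For the Slc7a8 circRNA they were circRNA of Supt5h (r = 0.98), Robo1 (0.97), Acbd5 (0.97), Arhgap32 (0.96) and Tead1 (0.96). For the linear RNA of Slc7a8 they included Plk2, Chst15 and Rnf125, each at r = 1.00 after rounding. For the Slc16a10 circRNA they were circRNA of Slc20a2 (0.98), Zfp426 (0.97), Ash1l (0.96), Zc3h12c (0.96) and Pikfyve (0.94), and for its linear RNA Ppp6c, Rrp1, Pdgfd, Cd47 and Rab11a (0.99 to 1.00).

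At junctions with a gene name, back-splice reads came to 119094 to 156625 per library at 4-h post-hCG and to 128354 to 163145 at 0-h. Of 16 genes on a list of known hCG responses, 10 were tested and all 10 rose, where 13% of all gene names rose. Of 9 tested granulosa genes 1 rose and 4 fell (13% and 12.8% over all gene names), Fshr and Cyp19a1 among those that fell, and their summed linear level was 8498 to 8992 normalized CPM at 4-h post-hCG, against 8329 to 11093 at 0-h. Of 3 leukocyte markers tested, 0 were called, with a summed level of 25.1 to 30.1 at 4-h post-hCG and 27.2 to 48.3 at 0-h, and the same held for 1 marker each of endothelium, theca and oocyte. Both tested markers of cumulus cells, Has2 and Tnfaip6, rose, with a summed level of 1965 to 2592 at 4-h post-hCG and 2.54 to 4.41 at 0-h, and both are also on the list of hCG responses. The erythroid marker Alas2 rose, with 513, 455 and 175 at 4-h post-hCG and 162, 209 and 164 at 0-h, while hemoglobin genes are not in the table. The part of these markers in the levels above was not tested. In bulk RNA, fewer cells of a type and less RNA per cell cannot be told apart.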

How the data were processed

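Stranded total RNA of mural granulosa cells from 6 mice was sequenced. By the methods of the study, the authors used FastQC for read quality, cutadapt for trimming, TopHat and TopHat-Fusion for mapping to GRCm38 and CIRCexplorer for back splices. The authors deposited whole-number counts per junction, back-splice reads and a linear count for each library, not normalized. The way in which linear counts were obtained is not given in these sources. A second table, with the authors' fold changes and p-values, was not used.

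The test was the quasi-likelihood test of edgeR 4.0.16 (R 4.3.3), with normalization by TMM, and p-values were adjusted by Benjamini-Hochberg over all items tested. A call needed an adjusted p no higher than 0.1 and a fold change no smaller than 1.5. Tests were two-sided. Circular counts were fitted over circRNA with 100 CPM in at least 3 libraries, and linear counts over gene names after filterByExpr. Circular and linear columns were fitted together for their ratio, without pairing the columns of a mouse. Mouse as a block was an alternative only for the ratios within a time point. Junctions without a gene name, with 15.6% to 18.9% of the back-splice reads, stayed out of library sizes. SE came from the fold change and F. DESeq2 1.42.0, other filters, scalings and leaving out each mouse were alternatives. The scripts were tested on simulated counts. Sequences were read with samtools 1.23.1 from the RefSeq GRCm38.p6 genome, and exons from GENCODE.

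The 2 genes, the gene lists and the alternatives were chosen with earlier results of these data known. From each list the text names up to 4 called genes each way with the largest change and up to 2 not called with the highest count, and for each member the 5 most like it. Some entries that this rule takes are not reported here. Intervals and floors cover counting error only.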

Additional observations from a re-analysis of the deposited data

Results flagged for a closer look

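Back splices of Slc7a8 that the authors' table gives no circRNA type were not part of the comparisons. There were 280 of them, with 527 reads, 438 at 4-h post-hCG and 89 at 0-h. They had 181, 130 and 127 reads in the 3 mice at 4-h post-hCG, against 22, 28 and 39 at 0-h, and drew attention as a signal outside the measured circRNA that was above its 0-h level in every mouse. Of the 280, 150 had both ends inside exon 11, the last exon, and the most read had 18 reads. Slc16a10 had 19 such junctions with 37 reads, 18, 4 and 5 at 4-h post-hCG and 3, 0 and 7 at 0-h, and the groups overlapped. Linear counts at the same Slc7a8 junctions were also higher at 4-h post-hCG (median log2 ratio of the means 3.32).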

How the results depend on the processing

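The directions of the Slc7a8 and Slc16a10 changes between the time points held under every alternative run, and so did their calls between the time points but those of the Slc7a8 circRNA and circular sum. With reads taken as counted, Slc16a10 lost its calls of circular against linear counts (0.20 at 4-h post-hCG and 0.61 at 0-h). There the linear count, which behaved as a sum over the ends of a junction, was set against reads at a single joint. Of 1658 circRNA, 20 were called between the time points, 7 with every circRNA of at least 1 read tested and 10 to 19 with 1 mouse left out. Gene sums gave 20, and 11 to 20 with 1 mouse left out. The ratio change gave 42 calls, 101 with DESeq2 and 11 to 75 with 1 mouse left out. Circular against linear counts gave 1130 calls at 4-h post-hCG, 2077 with a filter at 50 CPM and 514 at 200 CPM, and 1116 at 0-h, 2041 and 524 with the same filters, where more or fewer circRNA were tested. For Slc7a8 at 0-h the log2 ratio of -0.14 turned to 0.58 at 50 CPM and ranged over -0.37 to 0.021 with 1 mouse left out (0.021 without 0-h replicate 3), and the cause was not tested. The replicate numbers did not pair the mice (r of their deviations -0.07 to 0.03), and with the number as a replicate block 18 circRNA, 1754 linear gene names, 23 gene sums, 43 ratio changes and 7 transporters were called, against 20, 1793, 20, 42 and 6 without it. No call for Slc7a8 or Slc16a10 changed under it. Depth limits Slc16a10 in both measures, with 13 to 47 circular reads and 7 to 30 linear counts a library at exons 2 to 3.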
